A study of Mus musculus with 30 samples.

Results

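The genes described here are the axon guidance ligands and receptors that the mouse mammary epithelium expressed: semaphorins, Slits, netrins and ephrins with their plexin, neuropilin, Robo, neogenin, Unc5 and Eph receptors. They were taken by symbol from a table of 11137 genes, leaving out Ntn4, and 42 rows matched. One of them, Unc50, shares only its first letters with the Unc5 receptors, so it is given apart and the families hold 41 genes. These are 12 semaphorins, 6 plexins, 2 neuropilins, 1 Slit (Slit2), 1 Robo (Robo1), 1 netrin (Ntn1), 2 netrin receptors (Neo1 and Unc5b), 6 ephrins and 10 Eph receptors. All 41 passed the filter on low values when all libraries were compared, and between 29 and 39 of them passed it when 2 groups of one lineage were compared, since genes such as Ephb1, Sema6d and Sema3b were too low in luminal cells and Epha5 and Sema4d in basal cells. A normalized count is a number of reads divided by a size factor of its library, and since the reads come from transcript ends it does not scale with gene length.

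RNA was sequenced from the 3′ end of transcripts (QuantSeq) in 30 libraries of luminal and basal mammary cells sorted by CD24 and CD49f, after removal of CD45+ and CD31+ cells, from female mice. The luminal cells taken were GFP+, that is, cells in which Cre had switched the reporter, and RNA integrity varied between samples, with no value for each library given in the labels. Control mice, named K8imTmG, carry a reverse tetracycline transactivator under the keratin 8 promoter (K8rta), TETO CRE and the mTmG reporter, and K8iΔRank mice carry in addition RANK fl/fl, the floxed gene of the receptor RANK. All mice received doxycycline at 1 mg/ml in drinking water from week 3 to week 8 of age, so that Cre acts in cells with keratin 8 promoter activity and basal cells keep the gene. Virgin luminal cells gave 3 K8imTmG and 3 K8iΔRank libraries and parous luminal cells 5 and 4, while virgin basal cells gave 3 and 4 and parous basal cells 4 and 4. Parous glands had gone through pregnancy and involution, and 13 of 17 mice gave both a luminal and a basal library. Per the study's methods, control mothers nursed until their pups were removed, while K8iΔRank mothers failed to lactate and were rested to mimic involution. Genotype in parous cells therefore cannot be told apart from this difference in nursing.

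Guidance molecules were first known for steering growing axons, and epithelia use the same pairs of ligands and receptors for adhesion, cell sorting and branching. Secreted semaphorins bind neuropilins, which signal through plexins, whereas membrane-bound semaphorins bind plexins directly. Slits bind Robo receptors, and netrins bind neogenin, DCC and Unc5 receptors. Ephrins and Eph receptors are both held on cell membranes, so that they signal where neighbouring cells touch, and cells that differ in them tend to sort apart. In the mammary duct, netrin-1 and neogenin are known for holding the luminal and basal layers of the growing duct together, and Slit2 and Robo1 for controlling basal cell number and branching.

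Library size, as reads recovered from the deposited values, lay between 340445 and 3130419, so 1 read was worth 0.381 to 5.43 normalized counts, and 4 libraries held under 600000 reads. The 8 basal markers, such as Krt5 and Acta2, summed to 8196 to 12886 normalized counts in basal libraries and to 40.8 to 236 in luminal libraries, and the 8 luminal markers, such as Krt8 and Epcam, to 537 to 1725 in basal and 4398 to 17983 in luminal libraries. Tnfrsf11a, the gene of RANK, was not lower in K8iΔRank luminal cells, at 9.57 to 18.6 in virgin controls against 11.5 to 23.8, and 12.8 to 64.9 in parous controls against 27.0 to 41.1. Reads from the end of a transcript do not show the deletion of an internal exon. By qPCR, the paper reported less Rank RNA in luminal GFP+ cells from K8iΔRank mice than from controls. The libraries also fell into 14 with a high level of the lectin gene Clec2d (65.6 to 199 normalized counts) and 16 with a low level (0.641 to 8.68), a division that the labels do not name. Virgin luminal K8imTmG, parous luminal K8iΔRank and virgin basal K8iΔRank libraries were all Clec2d-low, and virgin luminal K8iΔRank and all basal K8imTmG libraries were Clec2d-high. Parous luminal K8imTmG libraries held 2 high and 3 low, and parous basal K8iΔRank libraries 2 high and 2 low. Genotype in virgin cells and stage in luminal K8iΔRank cells therefore cannot be told apart from this division within the libraries compared. A fit of all 4 groups of a lineage can hold the side as a term, estimated from the one group with both kinds of library. The values of this fit are given beside the results. In luminal cells that group is parous K8imTmG, where Clec2d-high libraries held 943438 and 534445 reads and Clec2d-low ones 2781750 to 2988541. Side and depth therefore cannot be told apart in the luminal fits with this term.

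The first comparison set luminal against basal cells. Most guidance genes were higher in basal cells: of the 41, 28 were higher in basal and 5 in luminal cells, and 8 did not pass the test (limma on log2(normalized count + 1), adjusted p below 0.05 over all genes). The share that passed was 80.5%, against 55.7% of all 11133 genes tested, and the share higher in basal cells among all genes was 27%. The median difference of the 41 was -1.05 on the log2 scale, luminal minus basal, while the median of all genes was 0.04. Libraries of the lineages did not overlap for 9 of the 41 genes, against 9.57% of all genes. These were Ephb1, Sema6d, Sema3b, Slit2, Sema6a, Sema3g, Sema5a and Nrp2, in which every basal library lay above every luminal library, and Sema4d, in which every luminal library lay above every basal library. For Ephb1, Ephb2, Nrp2, Plxna4, Sema3b, Sema3g and Sema6d no luminal library exceeded 10 normalized counts, the level of the filter. They passed the filter through basal libraries alone, and Sema4d through luminal libraries alone. Their lineage calls are therefore not independent of how they entered the test.

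**Figure D1:**
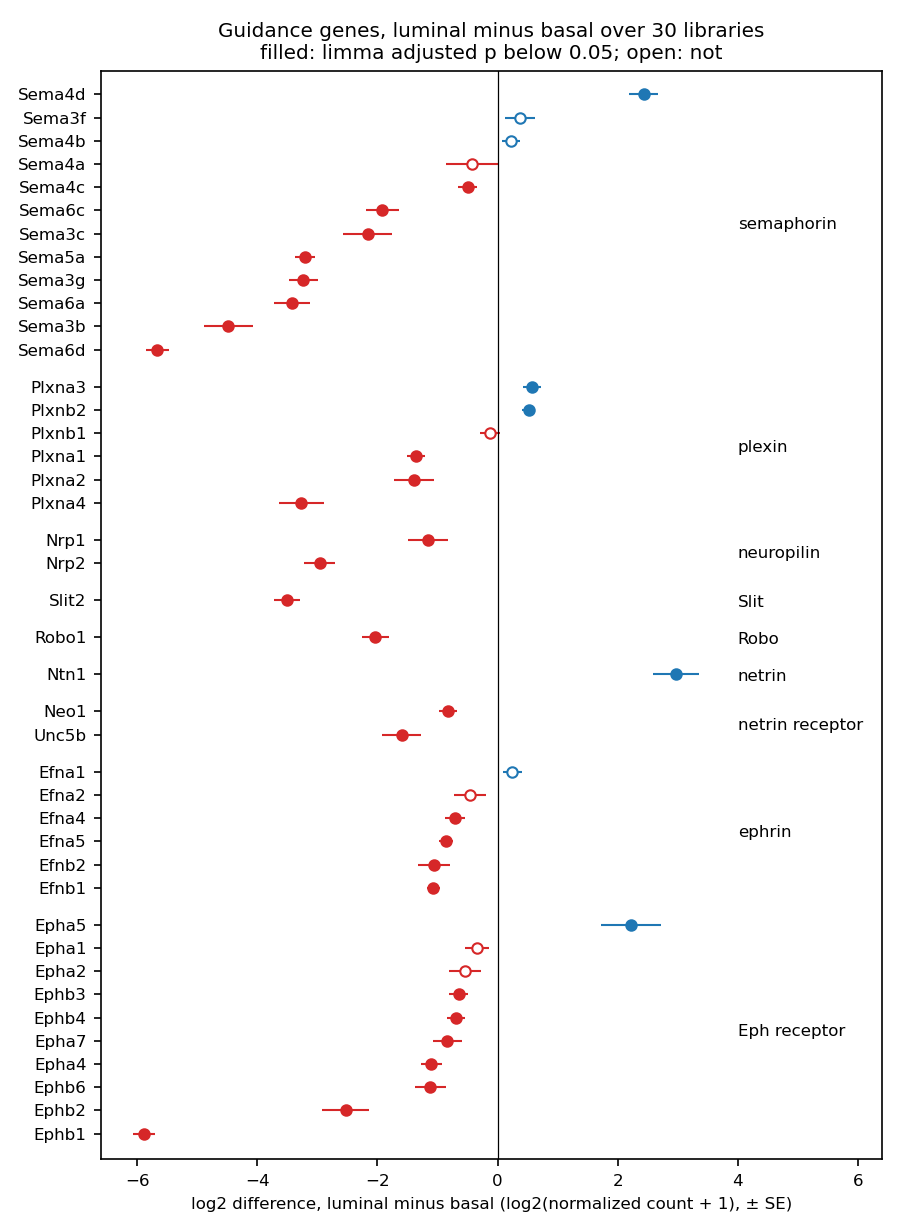
Difference between luminal and basal cells for the 41 guidance genes, by family, in log2(normalized count + 1) with its standard error (30 libraries). Filled points passed limma's test at an adjusted p below 0.05; 28 lie left of 0 (higher in basal) and 5 right of it (higher in luminal).

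Among ligands, the semaphorins showed the widest spread, with 8 of 12 higher in basal cells, 1 higher in luminal cells and 3 without a call. Sema6d (GRCm39 chr2:123931715-124509928, plus strand), a transmembrane semaphorin that binds plexin-A receptors, lay between 0 and 8.75 normalized counts in the 15 luminal libraries, with a median of 2.52. In the 15 basal libraries it lay between 139.6 and 278, with a median of 174. The groups were far apart, and the difference was -5.66 (SE 0.20; limma adjusted p = 5.35e-20). Sema3b (chr9:107474872-107486456, minus strand), a secreted semaphorin, lay between 0 and 4.19 in luminal libraries with a median of 2.46, and between 8.77 and 238 in basal libraries with a median of 69.2. Every basal library was above every luminal one, but the basal libraries themselves ranged widely in each of their groups. Its difference was -4.48 (SE 0.41; limma adjusted p = 1.20e-10).

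Sema6a, the close relative of Sema6d, lay between 0 and 19.0 in luminal libraries (median 6.31) and between 31.9 and 106 in basal libraries (median 80.2), a difference of -3.42 (SE 0.30; limma adjusted p = 6.64e-11). Sema5a, a transmembrane semaphorin with thrombospondin repeats that binds plexins, was the semaphorin of highest level in basal cells, with a range of 111 to 608 and a median of 243 normalized counts, against 11.5 to 57.1 with a median of 30.9 in luminal cells. Both genes therefore separated the lineages without overlap. Sema3g, a secreted semaphorin, was nearly absent from luminal libraries, at 0 to 1.57, and lay between 4.29 and 53.7 in basal libraries. Sema3c and Sema6c were also higher in basal cells, with log2 differences of -2.16 and -1.91 and overlap between the lineages.

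Sema4d ran the other way. This transmembrane semaphorin, the ligand of plexin-B1, lay between 18.4 and 48.7 normalized counts in luminal libraries (median 29.9) and between 0 and 8.37 in basal libraries (median 5.75). The difference was 2.43 (SE 0.24; limma adjusted p = 8.05e-10). The other members of its class differed less. Sema4c, the semaphorin of highest mean level over all libraries, passed the test and was higher in basal cells. Its medians were 158 in luminal and 238 in basal libraries, with a difference of -0.50 (SE 0.16; limma adjusted p = 0.00822). Sema4a had a difference of -0.43 (SE 0.43) and Sema4b of 0.22 (SE 0.14). The secreted Sema3f, of another class, had a difference of 0.37 (SE 0.25), and none of these 3 passed the test. The last bases of Sema4d overlap Secisbp2 on the opposite strand, and the sources used here do not state whether counting used the strand.

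Receptors for semaphorins were divided. Of the 6 plexins, Plxna1, Plxna2 and Plxna4 were higher in basal cells, Plxna3 and Plxnb2 in luminal cells, and Plxnb1 did not pass. Plxna4 lay between 0 and 2.64 in luminal libraries and between 0 and 41.5 in basal libraries, with 1 basal library without a read, and its difference was -3.26 (SE 0.37; limma adjusted p = 1.09e-08). Plxna1 had medians of 26.6 in luminal and 69.1 in basal libraries and a difference of -1.36 (SE 0.15). The luminal plexins differed less: Plxna3 had medians of 25.1 and 16.7 and a difference of 0.58 (SE 0.15; limma adjusted p = 0.00153), and Plxnb2 medians of 75.7 and 51.7 and a difference of 0.52 (SE 0.11; limma adjusted p = 1.49e-04). Plxnb1, the receptor of Sema4d and the plexin of highest level, had medians of 71.3 and 80.7 and a difference of -0.13 (SE 0.17; limma adjusted p = 0.535). Both neuropilins, the binding partners of secreted semaphorins, were higher in basal cells. Nrp2 lay between 0.736 and 4.85 in luminal and between 10.9 and 120 in basal libraries without overlap, a difference of -2.96 (SE 0.26). Nrp1 overlapped widely, with medians of 11.4 and 19.9, and its difference was -1.15 (SE 0.33; limma adjusted p = 0.00426).

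**Figure D2:**
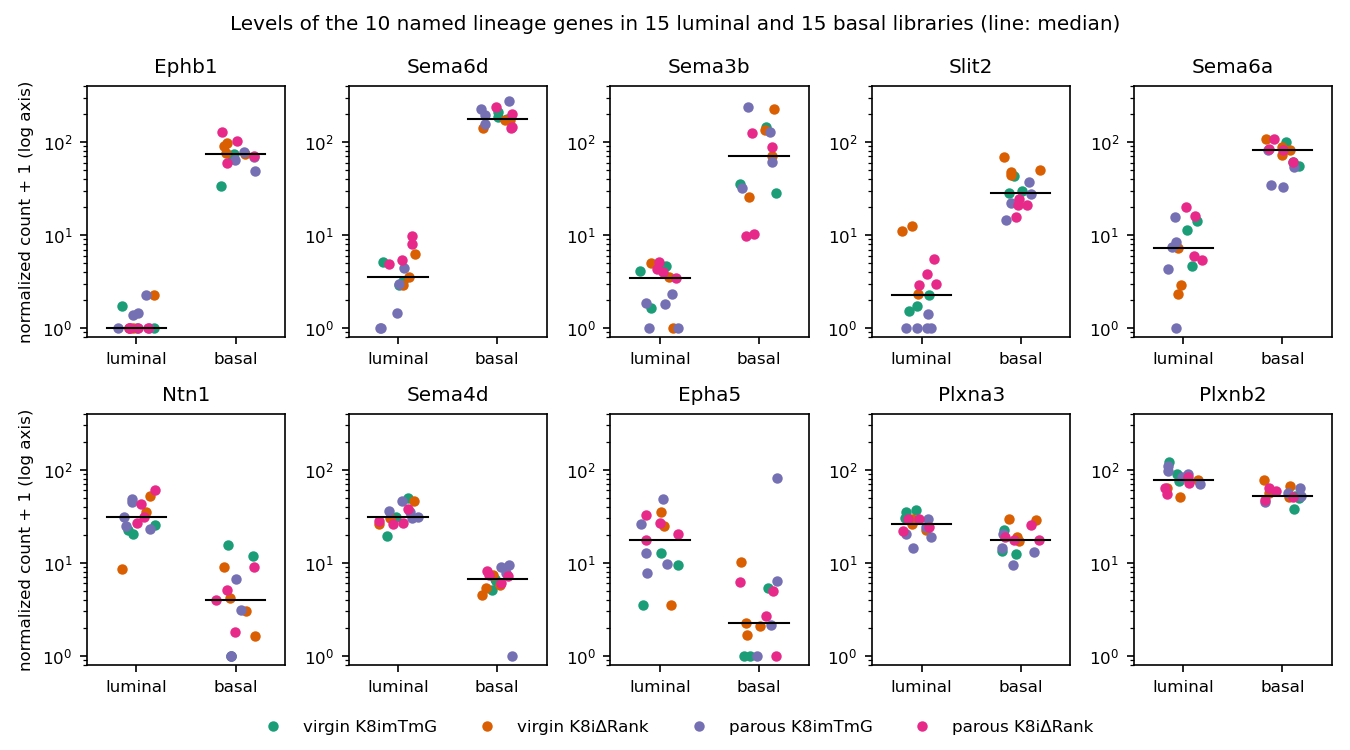
Normalized count + 1 on a log axis in each of 15 luminal and 15 basal libraries for the 5 genes with the largest called difference in each direction, coloured by stage and genotype, with a line at the median. Basal libraries sit above luminal ones for Ephb1, Sema6d, Sema3b, Slit2 and Sema6a, and 1 basal library stands at 79.6 for Epha5.

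The secreted ligand Slit2 and its receptor Robo1 were both higher in basal cells. Slit2 (chr5:48140480-48465075, plus strand) lay between 0 and 11.5 normalized counts in luminal libraries, with a median of 1.28 and 4 libraries without a read, and between 13.7 and 67.7 in basal libraries, with a median of 27.2. The groups did not overlap, and the difference was -3.51 (SE 0.22; limma adjusted p = 2.43e-14). Robo1 had medians of 3.48 and 19.7, overlapped slightly, and differed by -2.03 (SE 0.22; limma adjusted p = 5.74e-09).

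Netrin-1 and the netrin receptors stood in opposite lineages. Ntn1 (netrin-1; chr11:68100190-68291662, minus strand) lay between 7.69 and 59.7 in luminal libraries (median 30.1) and between 0 and 14.4 in basal libraries (median 3.00), with 3 basal libraries without a read. Its difference was 2.97 (SE 0.38; limma adjusted p = 9.40e-08), and 4 basal libraries lay above the lowest luminal library. Neo1, the receptor neogenin, was higher in basal cells, with medians of 66.6 and 117 and a difference of -0.82 (SE 0.15; limma adjusted p = 2.78e-05). Unc5b, another netrin receptor, had medians of 12.6 and 33.1 and differed by -1.59 (SE 0.32; limma adjusted p = 1.22e-04). Both receptors overlapped between the lineages.

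Ephrins and Eph receptors were mostly higher in basal cells by smaller margins, with 4 of 6 ephrins and 7 of 10 receptors called in that direction. Ephb1 (chr9:101799327-102231898, minus strand), a receptor of ephrin-B ligands, was the exception in size: 10 of 15 luminal libraries held no read, the luminal maximum was 1.30 normalized counts, and only 7 luminal reads were seen in all, against 33.1 to 128 normalized counts and 1335 reads in basal libraries. The difference of -5.89 (SE 0.19; limma adjusted p = 9.0e-21) depends on the value of 1 added before the log, since the luminal level is near 0. Ephb2, its relative, had medians of 1.67 and 14.5 and differed by -2.53 (SE 0.39). The other receptors called in the same direction, Epha4, Epha7, Ephb3, Ephb4 and Ephb6, had differences of -1.12 to -0.65. Ephb3 was the Eph receptor of highest level, with medians of 96.5 and 183.

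Epha5 was the Eph receptor higher in luminal cells. It lay between 2.52 and 47.9 in luminal libraries (median 16.7), and 14 of 15 basal libraries lay at 9.23 or below, 4 of them without a read. The remaining basal library, from parous K8imTmG mouse 557, stood at 79.6, above every luminal library. The difference was 2.22 (SE 0.51; limma adjusted p = 4.57e-04) with this library and 2.44 without mouse 557. Among ephrins, the transmembrane Efnb1 had medians of 63.2 and 127 and differed by -1.07 (SE 0.11; limma adjusted p = 1.88e-09), and Efnb2 differed by -1.05 (SE 0.27). The membrane-anchored Efna5 and Efna4 differed by -0.86 and -0.71. Efna1, the ephrin of highest level, had medians of 134 and 109 and a difference of 0.25 (SE 0.16; limma adjusted p = 0.181), and Efna2, Epha1 and Epha2 also did not pass the test.

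Markers listed for other cell types were higher in the basal libraries as well, and the part of such cells in these differences was not tested. The 9 fibroblast markers were all higher in basal cells (median difference -2.22) and summed to 105 to 961 normalized counts in luminal and 617 to 1129 in basal libraries. Of 10 endothelial markers 7 were in the table, 6 of them higher in basal cells, with sums of 11.9 to 162 in luminal and 107 to 1237 in basal libraries. The 5 Schwann cell markers, 4 of them higher in basal cells, summed to 256 to 650 in luminal and 455 to 5997 in basal libraries, and the single adipocyte marker in the table, Fabp4, lay between 4.40 and 50.5 and between 111 and 2587. The 2 leukocyte markers in the table summed to 3.20 to 24.997 and to 13.6 to 116. None of these markers was at 0 in every library of a lineage. In bulk RNA, fewer cells of a type and less RNA per cell cannot be told apart.

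The lineage difference was then compared within each stage and genotype. Among virgin K8imTmG mice 2 members were higher in luminal and 13 in basal cells (36.2% of all genes passed), among virgin K8iΔRank mice 3 and 18 (35.9%), among parous K8imTmG mice 3 and 20 (30.7%) and among parous K8iΔRank mice 4 and 21 (37%). In all 4 settings, 7 genes were higher in basal cells (Ephb1, Nrp2, Sema3b, Sema5a, Sema6a, Sema6d and Slit2) and 1, Sema4d, in luminal cells. The difference of Slit2 was -4.18 in virgin and -4.48 in parous K8imTmG cells against -2.91 and -2.47 in K8iΔRank cells, and Slit2 had 11.5, 10.1 and 1.32 normalized counts in the virgin K8iΔRank luminal libraries against at most 4.47 in the other luminal libraries. A test of the difference between these differences was not run. Ntn1 was higher in luminal cells in all 4, by 1.995 to 3.95, and passed in 3.

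Epha1, a receptor of ephrin-A ligands, had no overall lineage difference (-0.34, SE 0.20) and was called in opposite directions in different settings. It was higher in luminal cells of virgin K8iΔRank mice, by 1.21 (SE 0.42; limma adjusted p = 0.0458), where luminal libraries were Clec2d-high and basal libraries Clec2d-low. It was higher in basal cells of parous K8imTmG mice, with a difference of -1.51 (limma adjusted p = 0.0147), where basal libraries were Clec2d-high and most luminal libraries Clec2d-low. In both settings the lineage with more Clec2d-high libraries had the higher Epha1. Within single conditions, Clec2d-low minus Clec2d-high libraries differed in Epha1 by -1.54 (parous luminal K8imTmG) and by -0.13 (parous basal K8iΔRank). The part of the side in these calls was not tested. With the Clec2d side as a term in the fit, 33 members were called between the lineages, 32 of them shared with the fit without it. The last bases of Epha1 overlap Zyx on the opposite strand.

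**Figure D3:**
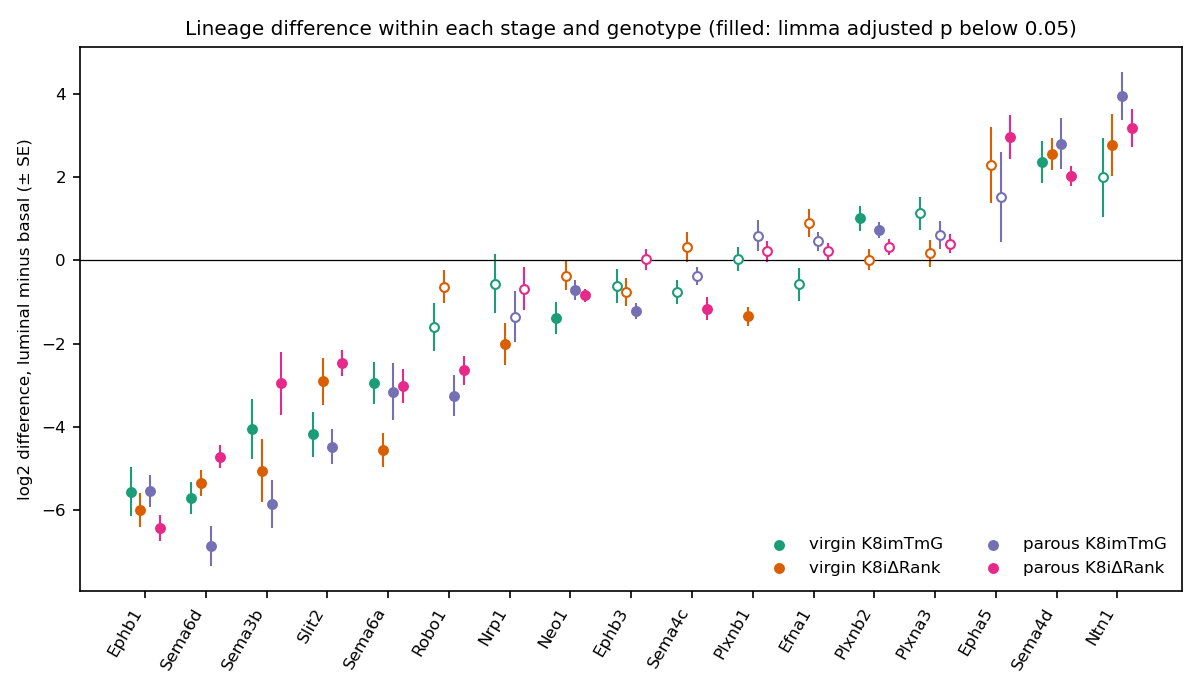
Luminal minus basal difference in log2(normalized count + 1), with its standard error, within each of 4 combinations of stage and genotype for the 17 genes named in the lineage comparison. Filled points passed limma's test at an adjusted p below 0.05; Ephb1, Sema6d, Sema3b, Slit2, Sema6a and Sema4d passed in all 4, and Epha5 was too low to be tested in virgin K8imTmG mice.

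The comparison of K8iΔRank with K8imTmG cells asked what luminal Rank deletion changed. In virgin luminal cells none of 31 members tested passed (99 of 10066 genes, 0.984%, passed by limma). An unadjusted p below 0.05 was seen for 5 members, against 2226 of 10066 genes. DESeq2 and edgeR on the recovered reads also called 0 members (6.44% and 1.37% of all genes). Members with the lowest p whose groups did not overlap are given as values. Efna5 was at 53.8, 74.5 and 57.4 normalized counts in controls and 21.5, 23.1 and 50.2 in K8iΔRank cells, a difference of -1.04 (limma adjusted p = 0.136). Epha4 was at 37.8, 44.6 and 35.3 against 29.0, 15.4 and 17.2 (limma adjusted p = 0.141). Ephb4, the main receptor of ephrin-B2, was at 14.1, 14.2 and 8.10 against 26.5, 19.2 and 30.4 (limma adjusted p = 0.163). In this comparison 7 of the 31 did not overlap, against 28.3% of all genes. The controls, all Clec2d-low, held 1862812 to 2422876 reads and the K8iΔRank libraries, all Clec2d-high, 814455 to 1158036, and markers of progenitor and alveolar luminal cells summed to 770 to 1327 and to 2032 to 3367. The part of either in these values was not tested. With the Clec2d side as a term, no member passed by limma (0% of all genes), and 3 had an unadjusted p below 0.05. For this and the later fits with the side as a term or on a single side, the share of all genes below that unadjusted p was not computed.

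In parous luminal cells none of 29 members passed by limma (0.0991% of all genes), and 8 had an unadjusted p below 0.05, against 2009 of 10090 genes. EdgeR called 0 (0.198% of all genes) and DESeq2 2, Ephb3 and Sema3f (6.06%). Ephb3 lay between 120 and 187 in K8iΔRank and between 60.7 and 96.5 in control cells, a difference of 0.75 (SE 0.19; limma adjusted p = 0.106). Epha2, a receptor of ephrin-A ligands known for its place in epithelial junctions, lay between 12.8 and 14.9 against 5.04 and 11.6 (limma adjusted p = 0.176). These were the 2 members of 29 without overlap, against 9.73% of all genes. Among Clec2d-low libraries alone, 3 controls against 4, no member passed by limma (0.416% of all genes), and 10 had an unadjusted p below 0.05.

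In virgin basal cells, which keep the Rank gene, 4 of 39 members passed, or 10.3% against 8.99% of all genes, all higher in K8iΔRank mice (4.27% of all genes in that direction). DESeq2 called 5 (10.9%) and edgeR 3 (8.2%). Efnb2, the transmembrane ephrin-B2, was at 27.3, 20.7 and 27.2 in controls and 62.3, 74.4, 88.7 and 48.3 in K8iΔRank mice, a rise of 1.39 (SE 0.29; limma adjusted p = 0.0221). Sema3c was at 125, 82.7 and 81.5 against 457, 178, 196 and 358, a rise of 1.53 (SE 0.35; limma adjusted p = 0.0291). The groups did not overlap for either gene. Efnb1 rose by 0.92 (SE 0.22; limma adjusted p = 0.0332), from 126, 90.9 and 81.5 to 203, 185, 192 and 168. Epha4, a receptor that binds ephrins of both classes, rose by 1.18 (SE 0.29; limma adjusted p = 0.0362), from 111, 49.6 and 65.2 to 142, 188, 185 and 142. In all, 11 of 39 members did not overlap, against 28.2% of all genes. All controls here were Clec2d-high, with 340445 to 1172427 reads, and all K8iΔRank libraries Clec2d-low, with 1200781 to 2104379, and the Schwann cell markers summed to 1587 to 5997 in controls and 696 to 1822 in K8iΔRank mice. The part of depth and of these markers was not tested. With the Clec2d side as a term in a fit of the 4 basal groups, no member passed by limma (0% of all genes) and none had an unadjusted p below 0.05, and the differences were 0.0842 (SE 0.67) for Efnb2, 0.00106 (SE 0.49) for Sema3c, 0.35 (SE 0.33) for Efnb1 and 0.76 (SE 0.67) for Epha4. Leaving out mouse 538 or 568, both controls, left no member called, and leaving out mouse 820, 822 or 825 left 2, 1 and 1. The shares of all genes that passed without these mice are not given.

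The same genes differed on average between the Clec2d sides where one condition held both kinds of library. In parous luminal K8imTmG cells, Efnb2 was at 46.0, 32.7 and 28.6 in the Clec2d-low and 5.04 and 9.59 in the Clec2d-high libraries, and in parous basal K8iΔRank cells at 87.5 and 46.2 against 12.8 and 48.6. Sema3c was at 56.4, 19.0 and 35.9 against 6.72 and 0 in the first and at 278 and 224 against 86.1 and 85.4 in the second. Efnb1 and Epha4 were also higher on average on the low side in both conditions, by 0.27 and 0.57 for Efnb1 and by 0.68 and 0.43 for Epha4. For all 4 genes the direction was that of the comparison of genotypes in virgin basal cells. No test was run on these values, and the share of all genes with the same direction was not computed.

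In parous basal cells 1 of 38 members passed (0.906% of all genes, and 0.595% lower in K8iΔRank mice). Epha1 was at 90.005, 104, 111 and 80.8 in controls and 43.3, 63.0, 37.9 and 31.0 in K8iΔRank mice, a decrease with a log2 difference of -1.16 (SE 0.24; limma adjusted p = 0.0495). The groups did not overlap, and the 2 Clec2d-high K8iΔRank libraries, at 63.0 and 31.0, also lay below all controls. Among Clec2d-high libraries alone, 2 against 4, no member passed by limma (0% of all genes), and 4 had an unadjusted p below 0.05. Over all libraries edgeR called 0 (0.633%) and DESeq2 2, Epha1 and Sema5a (6.09%). Sema5a was at 153, 166, 111 and 181 in controls against 323, 237, 344 and 243 (limma adjusted p = 0.057), and Efna5 at 60.7, 82.9, 83.6 and 81.9 against 152, 87.7, 137 and 135 (limma adjusted p = 0.105), both without overlap. These were the 3 of 38 members without overlap, against 12% of all genes. Controls held 450064 to 1365008 reads and K8iΔRank libraries 1844364 to 2996649, the basal markers summed to 10154 to 11355 and 8196 to 8988, and the luminal markers to 537 to 780.4 and 866 to 1153. The part of these in the differences was not tested. Without K8iΔRank mouse 794, 5 members passed, and without mouse 532, 534, 557, 787, 798 or 830 none did. The basal libraries of mice 794 and 830 are both Clec2d-high like the controls, and why these fits differ was not tested. Shares of all genes for these fits are not given.

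The comparison of parous with virgin cells of one genotype asked what pregnancy and involution left behind. In luminal K8imTmG cells no member of 29 passed by limma (2.2% of all genes), and 5 had an unadjusted p below 0.05, against 2230 of 10279 genes. EdgeR called 0 (2.69% of all genes) and DESeq2 called 3, Efnb1, Epha4 and Sema3f (10.3%). Efnb1 was at 82.7, 70.3 and 88.3 in virgin and between 32.0 and 49.3 in parous cells, a difference of -0.92 (SE 0.22; limma adjusted p = 0.0621). Epha4 was at 37.8, 44.6 and 35.3 in virgin and between 50.4 and 106 in parous cells, a difference of 1.07 (SE 0.27; limma adjusted p = 0.0764). Plxna3 was at 34.0, 36.2 and 29.4 against 13.4 to 28.8 (limma adjusted p = 0.203). These were the 3 of 29 members without overlap, against 16.9% of all genes. Among Clec2d-low libraries alone, 3 parous against 3 virgin, 4 members passed, with 12.8% of all genes: Epha4 and Plxnb1 were higher in parous cells, by 1.34 and 0.88, and Efnb1 and Sema3f lower, by -0.81 and -1.59. Sema3f was at 14.1, 19.9 and 30.2 in virgin and 4.80, 5.74 and 8.22 in Clec2d-low parous cells, without overlap. The 9 markers of hormone-sensing luminal cells summed to 10678 to 12688 in virgin and 728 to 9884 in parous K8imTmG cells, and the 7 of progenitor and alveolar cells in the table to 770 to 1327 and 3446 to 4941. The part of this shift between luminal cell types was not tested.

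In luminal K8iΔRank cells 6 of 31 members passed, or 19.4% against 16% of all genes, 5 of them higher in parous cells (8.25% of all genes) and 1 lower (7.78%). DESeq2 and edgeR also called 6 (18.1% and 15.9%). Sema5a was at 17.7, 11.5 and 15.9 in virgin and 42.2, 49.1, 41.8 and 57.1 in parous cells, a rise of 1.61 (SE 0.25; limma adjusted p = 0.00392). Efna5 rose by 1.54 (SE 0.30; limma adjusted p = 0.00907), from 21.5, 23.1 and 50.2 to 105, 94.8, 73.6 and 78.0. Epha4 rose by 1.39 (SE 0.29; limma adjusted p = 0.0119), from 29.0, 15.4 and 17.2 to 75.0, 44.7, 47.4 and 50.7. Groups did not overlap for these ligands and this receptor. Efnb2 rose by 1.28 (SE 0.36; limma adjusted p = 0.0366), from 6.31, 11.5 and 6.61 to 28.9, 22.1, 14.5 and 18.9, and Plxnb1 by 1.17 (SE 0.24; limma adjusted p = 0.0121), from 46.7, 50.0 and 34.3 to 114, 93.3, 71.3 and 122. Epha1 fell, with a log2 difference of -1.13 (SE 0.30; limma adjusted p = 0.0307), from 41.6, 94.2 and 54.2 to 28.9, 32.9, 27.9 and 19.4. These were the 6 of 31 members without overlap, against 29.7% of all genes. All virgin libraries here were Clec2d-high, with 814455 to 1158036 reads, and all parous libraries Clec2d-low, with 2214318 to 3130419. Hormone-sensing markers summed to 6926 to 11707 in virgin and 3322 to 7458 in parous cells, and 4 of 9 fell. Fibroblast markers summed to 733 to 857 in virgin and 177 to 428 in parous cells, basal markers to 78.8 to 236 and 40.8 to 72.3, and Schwann cell markers to 256 to 363 and 395 to 649.6. The part of depth and of other cell types was not tested.

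Within single conditions these 6 genes also differed on average between the Clec2d sides, in the direction of this comparison. The share of all genes with the same direction was not computed. In parous luminal K8imTmG cells the Clec2d-high libraries were also shallower. Their hormone-sensing markers summed to 9884 and 4279, against 728 to 3861 in the Clec2d-low ones. The part of depth and of luminal cell types was not tested. In parous luminal K8imTmG cells Plxnb1 was at 134, 135 and 100.1 in Clec2d-low and 40.3 and 76.7 in Clec2d-high libraries, and Epha1 at 21.6, 19.4 and 22.9 against 45.4 and 89.5. The low-minus-high difference of Sema5a was 0.43 there and 0.47 in parous basal K8iΔRank cells, and that of Efna5 0.41 and 0.40. Epha1 differed by -1.54 in the first and by -0.13 in the second. With the Clec2d side as a term in a fit of the 4 luminal groups, no member passed by limma between virgin and parous K8iΔRank cells (0% of all genes), and 4 had an unadjusted p below 0.05. The differences were then 1.18 (SE 0.56) for Sema5a, 1.13 (SE 0.42) for Efna5, 0.71 (SE 0.39) for Epha4 and 0.0472 (SE 0.38) for Plxnb1, while Efnb2 and Epha1 changed sign, to -0.89 (SE 0.55) and 0.41 (SE 0.49).

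**Figure D4:**
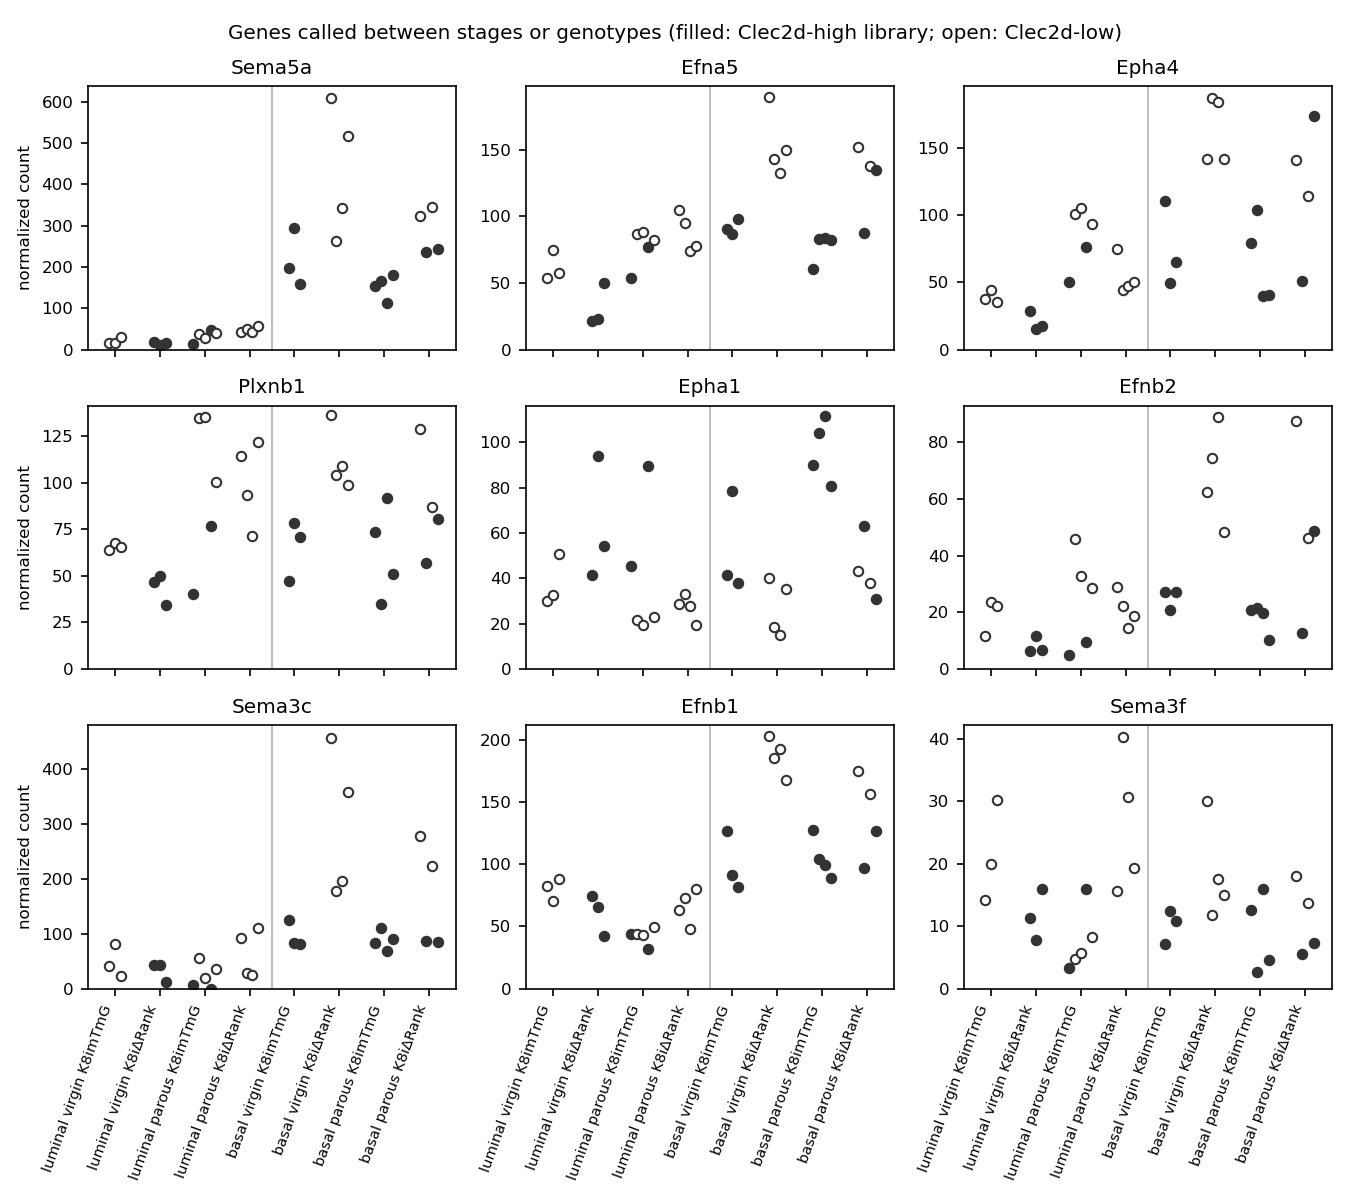
Normalized counts in each of the 30 libraries for the 9 guidance genes called in a comparison of stage, genotype or their interaction, with Clec2d-high libraries filled and Clec2d-low libraries open and a line between luminal and basal groups. In basal cells Efnb2, Sema3c, Efnb1 and Epha4 are higher in the open points of virgin K8iΔRank mice than in the filled points of virgin K8imTmG mice.

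In basal cells no member passed between parous and virgin mice of either genotype. Among K8imTmG mice 39 members were tested and 4 had an unadjusted p below 0.05, against 969 of 10538 genes. By limma 0% of all genes passed, and DESeq2 and edgeR called no member (0.418% and 0.0759% of all genes). Among K8iΔRank mice 38 were tested and 6 had an unadjusted p below 0.05, against 1036 of 10525 genes. By limma 0% of all genes passed, edgeR called 0 (0% of all genes) and DESeq2 called 2, Slit2 and Sema3g (0.865%). The 2 Clec2d-low parous libraries alone against the virgin ones gave no call by limma (0% of all genes), and 4 had an unadjusted p below 0.05. Slit2 was at 48.5, 42.8, 46.7 and 67.7 in virgin and 14.6, 19.9, 20.2 and 23.3 in parous K8iΔRank mice, a difference of -1.35 (SE 0.24; limma adjusted p = 0.197). Sema3g was at 40.4, 30.4, 40.6 and 12.9 against 4.29, 10.4, 5.72 and 6.72, a difference of -1.98 (SE 0.41; limma adjusted p = 0.284). Neither gene's groups overlapped, and the difference of Slit2 was also negative in K8imTmG mice, at 41.7, 28.9 and 27.2 against 20.9, 26.7, 35.8 and 13.7, where groups overlapped. Robo1, the receptor, was at 9.23, 14.3, 12.9 and 15.0 in virgin and 19.7, 27.9, 19.8 and 27.9 in parous K8iΔRank mice (limma adjusted p = 0.469).

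In basal K8imTmG cells Sema3g was at 20.1, 53.7 and 16.3 in virgin and 6.28, 8.02, 15.9 and 11.4 in parous mice (limma adjusted p = 0.489). Ephb6, an Eph receptor without kinase activity, was at 34.5, 45.5 and 27.2 against 14.7, 2.67, 19.9 and 20.5 (limma adjusted p = 0.47), and Epha1 at 41.7, 78.5 and 38.0 against 90.005, 104, 111 and 80.8 (limma adjusted p = 0.396). None of the 3 overlapped, but some of these values rest on few reads. Sema3g at 16.3 in virgin mouse 568 and at 6.28 and 8.02 in parous mice 532 and 534 is 3 reads each. Ephb6 at 2.67 in mouse 534 is 1 read. Members without overlap numbered 5 of 39 in K8imTmG mice, against 9.35% of all genes, and 4 of 38 in K8iΔRank mice, against 6.1%.

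Sema3g and Nrp1 are known to be expressed in endothelial cells, and the levels of endothelial markers differed between basal groups. The 7 endothelial markers in the table summed to 245 to 520 normalized counts in virgin K8imTmG and 329 to 1237 in virgin K8iΔRank basal libraries, against 107 to 196 and 136 to 233 in parous ones. Nrp1 was at 76.2, 52.1, 104 and 19.3 in virgin K8iΔRank basal libraries with endothelial sums of 1237, 502, 957 and 329, so the library with the lowest sum had the lowest Nrp1. Sema3g in the same libraries was at 40.4, 30.4, 40.6 and 12.9. In virgin K8imTmG libraries with sums of 520, 393 and 245, Nrp1 was at 68.9, 24.8 and 10.9 and Sema3g at 20.1, 53.7 and 16.3. In parous K8imTmG mice the highest Nrp1, 19.9, and the highest Sema3g, 15.9, were in mouse 557 with the lowest sum, 107. Slit2 was highest, at 67.7, in the virgin K8iΔRank library with the lowest sum of its group. The part of endothelial RNA in these values was not tested.

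**Figure D5:**
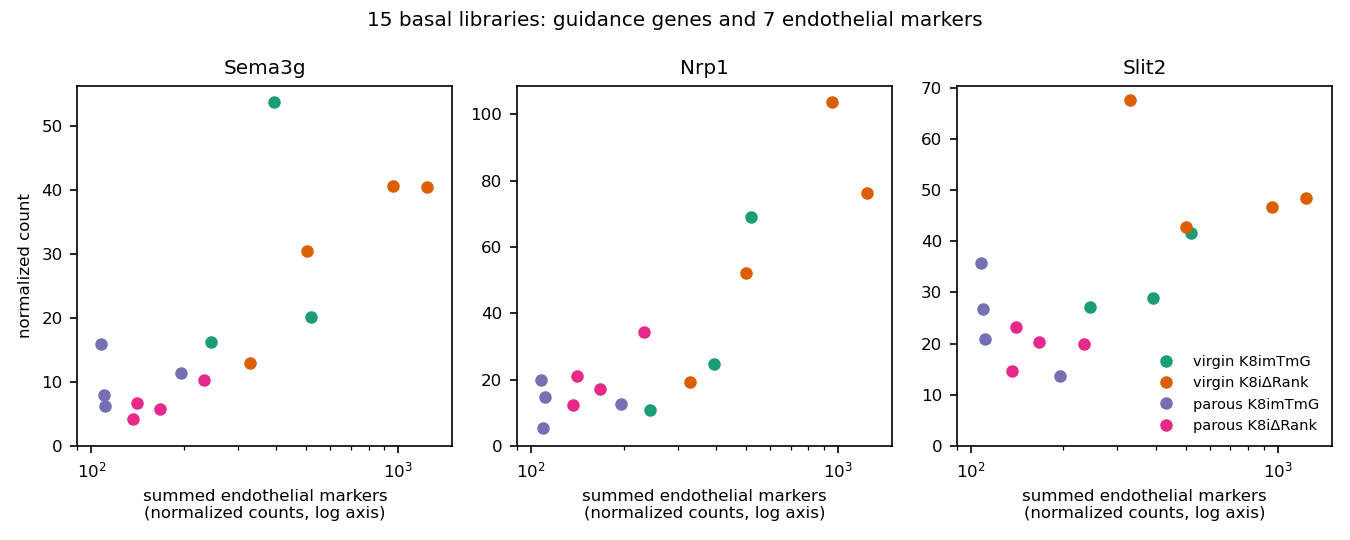
Normalized counts of Sema3g, Nrp1 and Slit2 against the summed level of 7 endothelial markers (log axis) in the 15 basal libraries, coloured by stage and genotype. All 8 parous libraries have sums of 233 or below and Sema3g of 15.9 or below.

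Whether the genotype difference itself differed between stages was tested with an interaction term. In luminal cells 3 of 29 members passed, or 10.3% against 12.9% of all genes, all with a higher genotype difference in parous cells (7.17% of all genes). DESeq2 also called 3 (19.4%) and edgeR 1, Sema3f (12.6%). Sema3f had an interaction of 2.56 (SE 0.65; limma adjusted p = 0.0232): its group means were 21.4 in virgin controls, 11.6 in virgin K8iΔRank, 7.62 in parous controls and 26.5 in parous K8iΔRank cells. Efna5 (1.23, SE 0.39; limma adjusted p = 0.0474) and Efnb1 (1.05, SE 0.33; limma adjusted p = 0.0496) had the same sign. Without mouse 538, 794 or 821 none of the 3 passed. The Clec2d side is unevenly spread over these 4 groups. With the side as a term no member passed by limma (0.0487% of all genes) and 3 had an unadjusted p below 0.05, and the interactions were 2.95 (SE 1.01) for Sema3f, 0.66 (SE 0.58) for Efna5 and 0.67 (SE 0.51) for Efnb1. In basal cells 0 of 38 members passed by limma (0% of all genes), and 2 had an unadjusted p below 0.05, against 1082 of 10607 genes. DESeq2 and edgeR called 0 (0.17% and 0% of all genes).

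Unc50, which encodes a Golgi membrane protein and not a netrin receptor, was called once. It fell between virgin and parous luminal K8iΔRank cells, with a log2 difference of -2.31 (SE 0.69; limma adjusted p = 0.0442), from 156, 23.1 and 124 to 25.5, 12.3, 30.7 and 4.47, with overlap between the groups. Its level differed by Clec2d side within a single condition too, at 24.4, 27.8 and 44.6 in low against 148 and 137 in high libraries of parous luminal K8imTmG cells.

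Other genes of the pathways were followed in 3 lists by role. Of 19 other ligands and co-receptors 13 were tested between the lineages, 3 higher in luminal and 6 in basal cells (median -0.25). Met, the HGF receptor that associates with plexin-B receptors, was higher in luminal cells by 2.56, and Pgf, a ligand of Vegf receptors and neuropilins, higher in basal cells (log2 difference -2.89). Of 49 cytoplasmic transducers 42 were tested, 12 higher in luminal and 17 in basal cells (median -0.13), against 28.7% and 27% of all genes. The collapsin response mediators Dpysl3 and Dpysl2, which carry semaphorin signals to microtubules, were higher in basal cells (-5.97 and -4.77), and so were the oxidoreductases Mical2 and Mical1, which act below plexins on actin (-2.91 and -2.45). Ngef, an exchange factor bound by Eph receptors, was higher in luminal cells by 2.46, and Enah, an actin regulator downstream of Robo and netrin receptors, by 2.37. Of 6 genes for shedding and turnover, 3 were higher in luminal cells, among them the ephrin-cleaving protease Adam10 by 2.12, and 1, Ptpn13, a phosphatase of ephrin-B, in basal cells (-1.92).

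Between stages and genotypes, Rasa1, a Ras GTPase-activating protein bound by Eph receptors, rose in virgin basal K8iΔRank cells by 1.499 (SE 0.26; limma adjusted p = 0.0119) and in parous against virgin luminal K8iΔRank cells by 1.16 (SE 0.22; limma adjusted p = 0.00901). Rock1, a kinase that acts on the actin cytoskeleton, rose in the same 2 comparisons, by 0.91 and 0.85. Both comparisons set all Clec2d-low libraries against all Clec2d-high libraries. In parous against virgin luminal K8imTmG cells Cd44 rose by 1.84 (SE 0.32; limma adjusted p = 0.0285), Rgma, a neogenin ligand, rose by 1.76 (SE 0.34; limma adjusted p = 0.0371) and Enah fell, with a log2 difference of -1.22 (SE 0.19; limma adjusted p = 0.0227). Counts of ligands and co-receptors, and then of transducers, were 2 of 13 higher and 1 of 36 lower in this comparison (2.2% of all genes passed). They were 1 higher and 1 lower of 13, and 3 higher of 36, for stage in luminal K8iΔRank cells (16%). In virgin basal K8iΔRank cells they were 3 of 13 higher, and 3 higher and 1 lower of 42 (8.99%), and for the luminal interaction 2 higher and 1 lower of 13, and 6 of 36 higher (12.9%). In the other comparisons of genotype and stage and in the basal interaction no gene of these lists passed by limma.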

How the data were processed

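RNA of 30 sorted libraries was sequenced from its 3′ end. Per the study's methods, the authors removed duplicate molecules by UMI with UMI-tools, aligned reads to GRCm39 with Bowtie2, counted them per gene and deposited a signal, counts divided by DESeq2 size factors, for 11137 genes that had exceeded 10 in 25% or more of the samples. Every value was a whole multiple of 1 read (tolerance 0.001 reads), so reads were recovered for alternatives. The main test was limma 3.58.1 with a trend on log2(normalized count + 1), whereas the study tested counts, not used here, with DESeq2; the fit ran on genes exceeding 10 in 25% or more of the libraries in the fit, p-values being adjusted over all genes by Benjamini and Hochberg. Alternatives ran edgeR 4.0.16 or DESeq2 1.42.0 on those reads, or used a pseudocount of 4, no filter, quantile normalization, 1 fit of all 30 libraries, single Clec2d sides, the side as a term or 1 mouse left out. The fits were tested on simulated data.

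Lineages were compared as the mean of 4 luminal against the mean of 4 basal groups. The mouse number in the sample titles pairs a luminal with a basal library of 13 mice, and their deviations from the group means correlated between -0.24 and 0.34 (median 0.09; 6 of 13 above 0.1). Within a lineage, replicates are separate mice, and p-values measure the spread between them. Between lineages, the main fit treated the 30 libraries as independent, though 13 of 17 mice gave both. Fits with mouse as a block were run as alternatives. The members and lists were chosen with earlier results of these data known. Genes given with values in each library were the 5 largest called lineage differences in each direction, every member called in another comparison, up to 3 members of lowest p without overlap where fewer than 3 passed, and the highest member of each family. Coordinates are those of GENCODE on GRCm39. Intervals and limits from reads cover counting error only. One gene of the pathway lists is not reported here.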

Additional observations from a re-analysis of the deposited data

Results flagged for a closer look

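Among 150 groups of 4 or 5 libraries tested over 30 genes, 8 had a library far from the others by Dixon's criterion, and chance alone gives about 1 in 20. Epha5 stood at 79.6 normalized counts in the basal parous K8imTmG library of mouse 557, where the others of the group lay at 5.35 or below, and at 9.23 in the basal virgin K8iΔRank library of mouse 820, where the others lay at 1.24 or below. Sema6d was at 139.6 in the same basal library of mouse 820. In basal parous K8imTmG cells Efna5 was at 60.7 in mouse 532 and Efnb2 at 10.2 in mouse 558, both below the others. In luminal parous K8imTmG cells Ephb4 was at 13.4 in mouse 494, and Slit2 at 0.433, which is 1 read, in mouse 558 where the others held none. Sema4d was at 37.3 in the luminal parous K8iΔRank library of mouse 798.

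The genotype difference in luminal cells differed between stages, by limma's interaction term, for Sema3f (2.56, adjusted p = 0.0232), Efna5 (1.23, adjusted p = 0.0474) and Efnb1 (1.05, adjusted p = 0.0496). The interaction of Efna5 and Efnb1 lies just below the threshold, and none of the 3 passed without mouse 538, 794 or 821.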

How the results depend on the processing

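The lineage result kept between 32 and 36 called members under every alternative over both stages and genotypes, and 33 with mouse as a random replicate block and 32 with mouse as a fixed term. Within virgin K8imTmG mice it was 15 and within virgin K8iΔRank mice 21, where fewer libraries enter. Leaving out 1 mouse gave 33 to 36 members between the lineages, 0 to 0 for genotype in virgin or parous luminal cells and for stage in basal cells of either genotype, 0 to 2 for stage in luminal K8imTmG cells (2 without mouse 494), 4 to 6 for stage in luminal K8iΔRank cells, 0 to 4 for genotype in virgin basal cells, 0 to 5 for genotype in parous basal cells, 0 to 2 for the luminal interaction and 0 for the basal one. With all 30 libraries in 1 fit, members called were 2 for genotype in virgin luminal cells, 1 for stage in luminal K8imTmG cells, 7 for genotype in virgin basal and 0 in parous basal cells (1.87%, 8.28%, 20.3% and 3.4% of all genes). DESeq2 called 2, 3, 2 and 2 members for genotype in parous luminal cells, stage in luminal K8imTmG cells, genotype in parous basal cells and stage in basal K8iΔRank cells. Without the filter the counts were 1 for genotype in parous luminal cells, 0 in parous basal cells and 1 for the luminal interaction; quantile normalization gave 0 and 1 for the last pair, and edgeR 0 and 1. Clec2d-low libraries alone gave 4 for stage in luminal K8imTmG cells, and Clec2d-high libraries alone 0 for genotype in parous basal cells. With the Clec2d side as a term, chosen after seeing the data, counts were 0 for stage in luminal K8iΔRank cells, genotype in virgin basal cells and the luminal interaction, where Epha1 and Efnb2 changed sign between stages in luminal K8iΔRank cells, to 0.413 and -0.895. The alternatives that left out 4 libraries that stood apart or 4 shallow libraries were chosen after seeing the data. Without the first, 33 members were called between the lineages, 2 for genotype in virgin basal cells (Efnb2 and Sema6c; 5.96% of all genes) and 0 for the luminal interaction; without the second, 35 between the lineages. Counts here without a percentage, among them those with 1 mouse left out, were not set against the share of all genes. The cause of these changes was not tested.

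Of 1013 settings over 48 named results, 861 kept direction and side of the threshold, 125 lost the call, 17 gained one and 10 changed sign, none of the last past the threshold. Efna1 changed to -0.58 within virgin K8imTmG mice, Ephb3 to 0.0287 within parous K8iΔRank mice and Sema4c to 0.31 within virgin K8iΔRank mice. Plxnb1 changed to 0.0591 with the replicate block as a fixed term, 0.0357, 0.593 and 0.21 within virgin K8imTmG, parous K8imTmG and parous K8iΔRank mice, and 0.0465 without the 4 shallow libraries. For the 5 largest called lineage differences in each direction, 300 of 309 settings kept direction and call, 9 lost the call and none changed sign.

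In single libraries 3 reads are worth 1.14 to 9.59 normalized counts in luminal cells, and at most 16.3 in basal cells, so members near or under that level are not resolved there.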

Other observations

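Within the Clec2d-low libraries, 4 stood apart in several guidance genes: the luminal libraries of virgin K8imTmG mouse 538 and parous K8iΔRank mouse 830, and the basal libraries of virgin K8iΔRank mice 820 and 825. They were chosen after their values were seen, and no test was run. Low Sema4a was not particular to them, since a Clec2d-high virgin luminal K8iΔRank library lay at 1.92 normalized counts. Efna1 was at 39.2 and 67.7 in these basal libraries against 94.6 to 113.5 in the other Clec2d-low basal libraries. In luminal libraries Efna1 overlapped, at 47.1 and 122.7 against 89.9 to 169. Sema4a was at 3.97 and 4.42 normalized counts in these luminal libraries and between 5.90 and 55.1 in the other 8 Clec2d-low luminal libraries, and at 2.31 and 4.30 in these basal libraries against 11.6 to 71.9 in the other 4. Sema4c was at 80.8 and 104 in the basal libraries against 189 to 238, and at 71.0 and 103.8 in the luminal libraries against 103.2 to 209.5, with overlap. Unc5b was at 6.44 and 11.5 in the basal libraries against 32.6 to 44.7, and at 0.736 and 6.95 in the luminal libraries against 3.599 to 17.3, also with overlap. Ephb3 ran the other way, at 187 and 204 in the luminal libraries against 72.4 to 134, and at 242 and 335 in the basal libraries against 121 to 211. Unc50 was at 4.47 and 5.15 in the luminal and 0 and 2.15 in the basal libraries, against 12.3 to 54.5 and 12.9 to 50.9. Against the other Clec2d-low libraries of the same lineage, Sema4a was therefore lower and Ephb3 higher in all 4, without overlap. Sema4c and Unc5b were lower without overlap in the basal libraries only. The cause was not tested.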
